A study of Mus musculus with 2 samples.

Results

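The miR-302/miR-367 cluster is a group of 5 miRNA genes, Mir302b, Mir302c, Mir302a, Mir302d and Mir367, which lie side by side on mouse chromosome 3. They were picked out of 1973 miRNA genes through their Ensembl identifiers, with earlier results of these data known, and all 5 had a row in both count tables. The small RNAs came from the neural tube, the tissue that gives rise to brain and spinal cord, dissected from embryos of the mouse strain B6NCrl on embryonic day 14.5. The 2 libraries form 1 group: replicate 1 was made from pup 1 of dam 1 and replicate 2 from pup 1 of dam 2, both collected on the same day. No treatment, mutation or second age was part of the design. The labels describe each sample as a single neural tube and its sex as pooled male and female, and the tables do not settle which holds. Separate dams make the libraries separate animals, but with 1 library per dam any difference between them has no replicate check.

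MiRNAs are cut from hairpins in a longer transcript and silence mRNAs that match their seed, bases 2 to 8 of the mature strand. The miR-302/miR-367 hairpins are transcribed together from a promoter that the pluripotency factors OCT4, SOX2 and NANOG bind. The miR-302 products are among the most abundant miRNAs of the mouse epiblast and of primed pluripotent cells, hold back cell cycle inhibitors, and fall as cells differentiate. In the mouse embryo miR-302 is needed for the timing of neural differentiation and for closure of the neural tube.

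RefSeq's table for GRCm38.p6 held 9 mature products of the 5 genes, and they are shown because the members differ in seed and therefore in the targets they could share. In each line the seed is in capitals. The product miR-302a-3p was not analysed here, so the seed groups below say nothing of it. The 3p products of Mir302b and Mir302d carry the seed AAGUGCU, which 3 genes of the miR-290 to miR-295 cluster of embryonic stem cells also carry.
miR-302b-3p: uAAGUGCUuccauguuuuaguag
miR-302d-3p: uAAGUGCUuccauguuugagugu
miR-291a-3p: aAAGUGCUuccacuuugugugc
miR-294-3p: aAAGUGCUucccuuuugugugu
miR-295-3p: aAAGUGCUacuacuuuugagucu
The 3p product of Mir302c is listed with its start 1 base further along the shared run. Its bases 2 to 8 therefore read AGUGCUU, a seed that no other product shown here has. The miR-17 seed AAAGUGC lies 1 base the other way, and miR-17-5p is given for comparison.
miR-302c-3p: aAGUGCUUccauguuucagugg
miR-17-5p: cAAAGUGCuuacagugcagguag
Mir367 has an unrelated seed, AUUGCAC, which is that of the miR-25 and miR-92 family.
miR-367-3p: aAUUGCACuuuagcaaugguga
miR-92b-3p: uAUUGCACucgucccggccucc
miR-92a-3p: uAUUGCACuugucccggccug
miR-25-3p: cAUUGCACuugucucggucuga
On the other arm, Mir302b, Mir302c and Mir302d share the seed CUUUAAC, while Mir302a has CUUAAAC and Mir367 CUGUUGC.
miR-302b-5p: aCUUUAACaugggaaugcuuucu
miR-302c-5p: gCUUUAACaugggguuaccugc
miR-302d-5p: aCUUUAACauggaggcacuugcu
miR-302a-5p: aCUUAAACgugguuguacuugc
miR-367-5p: aCUGUUGCuaacaugcaacuc

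The 5 hairpins lie on the plus strand of chromosome 3 within 580 bases, from 127545228 to 127545807 on GRCm38, the build also called mm10. In 5′ to 3′ order they are Mir302b at 127545228 to 127545301, Mir302c at 127545363 to 127545430, Mir302a at 127545496 to 127545564, Mir302d at 127545624 to 127545689 and Mir367 at 127545733 to 127545807. Gaps of 43 to 65 bases separate them. The GENCODE M21 annotation places no other gene on their strand at these positions. All 5 lie in an intron of Larp7, which encodes a binding protein of the 7SK small nuclear RNA and is transcribed from the opposite strand (127536714 to 127553349). The hairpins of the most and the least abundant member follow, with their mature products in capitals.
Mir302d: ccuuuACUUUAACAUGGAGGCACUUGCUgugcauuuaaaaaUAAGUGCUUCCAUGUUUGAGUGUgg
Mir367: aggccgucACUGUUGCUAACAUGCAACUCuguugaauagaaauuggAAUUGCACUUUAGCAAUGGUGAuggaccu
Predicted folding energies, computed from the hairpin sequences, ran from -34.5 kcal/mol for Mir367 to -23.3 kcal/mol for Mir302b, with 58 of 75 and 46 of 74 bases paired.

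The miR-302 genes were read in both embryos at a low level, and Mir367 in neither. Levels are counts per 1000000 sense-strand counts on miRNA genes (CPM), from 3172235 such counts in replicate 1 and 3671915 in replicate 2. Together the 5 genes had 394 counts in the library of dam 1 and 690 in that of dam 2, or 124 and 188 CPM (mean 156 ± 45.0, SD, n = 2), which is 0.0124% and 0.0188% of all miRNA counts. In tissue of many cell types, a few cells with much miR-302 and many cells with little cannot be told apart. For scale, the median level of the 329 genes with at least 10 counts in both libraries was 170 CPM, so that even the highest member lay below it.

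Mir302d had 150 counts (47.3 CPM, exact 95% Poisson interval 40.0 to 55.5) in replicate 1 and 265 counts (72.2 CPM, 63.7 to 81.4) in replicate 2. It was the highest member in both libraries, at 59.7 ± 17.6 CPM (SD, n = 2), and took rank 216 of the 1973 genes. Mir302a, the neighbour of Mir302d on its 5′ side, had 143 counts (45.1 CPM, 38.0 to 53.1) and 245 counts (66.7 CPM, 58.6 to 75.6). Its mean was 55.9 ± 15.3 CPM, rank 222, and its range over the libraries overlapped that of Mir302d. Mir302b, the first hairpin of the transcript, had 84 counts (26.5 CPM, 21.1 to 32.8) and 147 counts (40.0 CPM, 33.8 to 47.1). With a mean of 33.3 ± 9.58 CPM (rank 255) it lay below Mir302a in both libraries, and the ranges of these genes did not overlap. Mir302c, the second hairpin, was far lower, with 17 counts (5.36 CPM, 3.12 to 8.58) and 33 counts (8.99 CPM, 6.19 to 12.6). Its mean was 7.17 ± 2.57 CPM, rank 307. These intervals, like all others given here, cover counting error only.

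Mir367 had 0 counts in both libraries. Taken as 3 counts per library, the limit that a count of 0 sets was 0.946 CPM for replicate 1 and 0.817 CPM for replicate 2. Against that limit for Mir367, the count of Mir302d was 50-fold higher in replicate 1 and 88.3-fold higher in replicate 2. That of Mir302a was 47.7-fold and 81.7-fold higher. For Mir302c the folds were only 5.67-fold and 11-fold. Counting error of the higher gene is left out of these folds. Being at 0 was common among miRNA genes, since 1295 of the 1973 had no count in either library, so Mir367 could not be ranked among them.

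**Figure D1:**
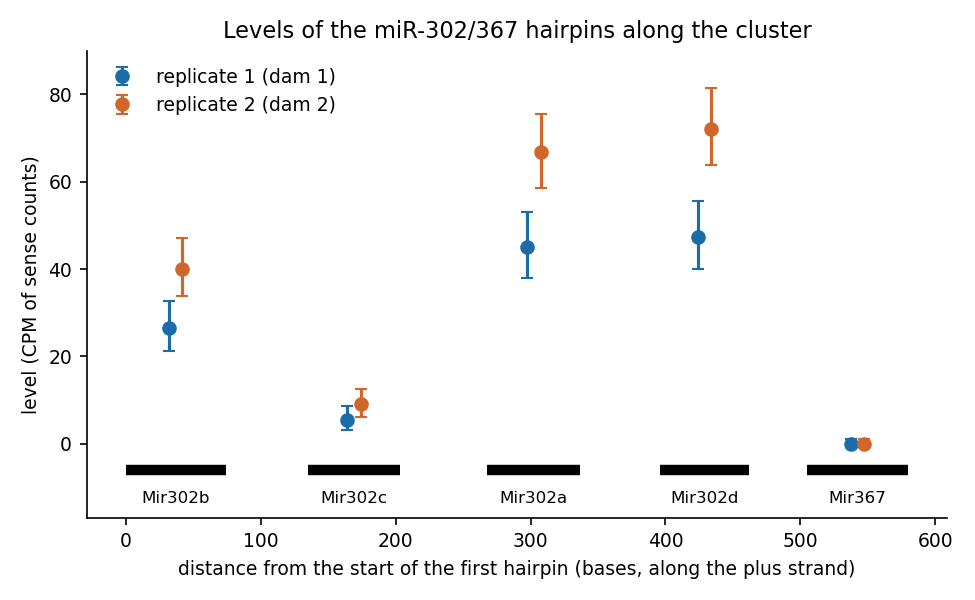
Level of each hairpin in CPM of sense counts (vertical axis) against its distance in bases from the start of the first hairpin (horizontal axis), for replicate 1 and replicate 2. Points are single libraries, bars are exact 95% Poisson intervals and black blocks are the annotated hairpins; Mir302a and Mir302d stood highest, Mir302c at 5.36 and 8.99 CPM lay between higher neighbours, and Mir367 was at 0 in both.

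Level did not follow the order of the hairpins along the transcript. Mir302c, between Mir302b and Mir302a, was lower than both, and the last of the miR-302 hairpins was the most abundant. Setting neighbours in level side by side, Mir302d had 1.05 times the counts of Mir302a in replicate 1 (exact 95% interval 0.829 to 1.33) and 1.08 times in replicate 2 (0.906 to 1.29), so these genes did not differ beyond counting error. Mir302a had 1.70 times the counts of Mir302b in replicate 1 (1.29 to 2.26) and 1.67 times in replicate 2 (1.35 to 2.06). Mir302b exceeded Mir302c by 4.94 times (2.91 to 8.88) and 4.45 times (3.04 to 6.71). The order Mir302d, Mir302a, Mir302b, Mir302c, Mir367 was the same in both libraries. It was also the same per base of hairpin, at 0.905 CPM per base for Mir302d, 0.810 for Mir302a, 0.449 for Mir302b and 0.105 for Mir302c. The mature products are 21 to 23 bases long, so length differs little between them.

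The shares that the members took of the cluster stayed close between embryos. Mir302d made up 38.1% of the cluster's counts in replicate 1 (exact 95% interval 33.3 to 43.1) and 38.4% in replicate 2 (34.8 to 42.2). Mir302a made up 36.3% (31.5 to 41.3) and 35.5% (31.9 to 39.2). Mir302b made up 21.3% in each, with intervals of 17.4 to 25.7 and 18.3 to 24.6. Mir302c made up 4.31% (2.53 to 6.82) and 4.78% (3.31 to 6.65). The intervals of the libraries overlapped for every member. Mir367 had 0 of 394 and 0 of 690 counts, and its exact 95% intervals reached up to 0.932% and 0.533%. Taken as 3 counts, the limit on its share was 0.761% and 0.435%.

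**Figure D2:**
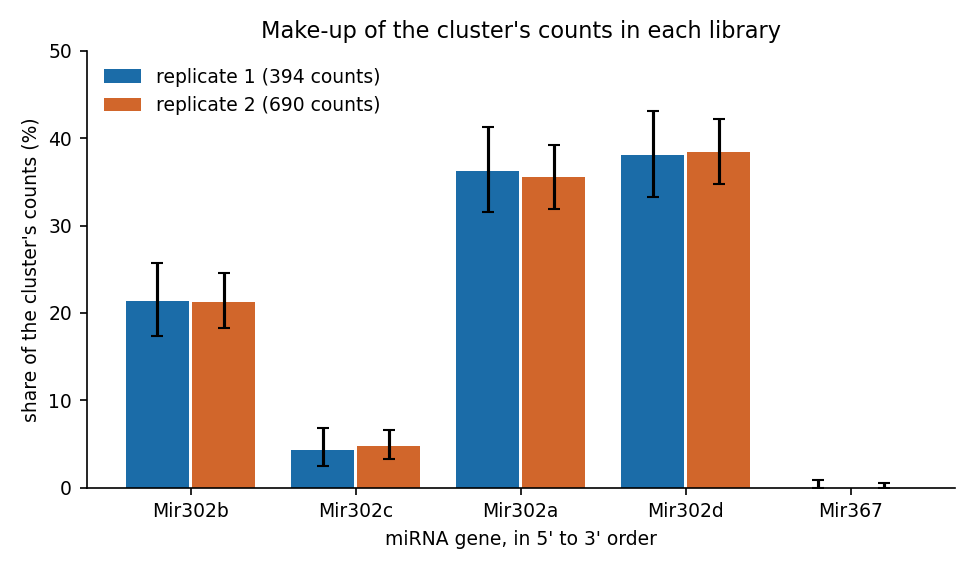
Share of the cluster's counts in percent (vertical axis) for each gene in 5′ to 3′ order (horizontal axis), in replicate 1 (394 counts) and replicate 2 (690 counts). Bars start at 0 and error bars are exact 95% binomial intervals; the intervals of both libraries overlapped for each gene, with Mir302d and Mir302a near 38% and 36% in both libraries.

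How far these levels rest on the counting can be read from the sequences. A read that matched several positions was counted for no gene, and such reads were 32.4% of replicate 1 and 33.3% of replicate 2. The 3p products of Mir302b and Mir302d share their first 17 bases, and miR-302c-3p shares 16 bases with each. Over whole hairpins the longest run common to 2 members was 20 bases, between Mir302a and Mir302b, so their reads of full length can be told apart while shortened ones may not be. Outside the cluster no hairpin of the 1005 in RefSeq's table shared more than 13 bases with a member. Mir367 shared at most 9 bases with another member and 11 with any other hairpin. Its 3p product shared 7 to 9 bases in a row with the other products of its seed, so among these hairpins no other gene holds a full-length copy of it. A gene's count adds both arms of its hairpin, so it does not show which mature product was read. On the strand opposite the hairpins, where Larp7 runs, all 5 genes had 0 counts in both libraries.

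All 4 miR-302 genes stood higher in replicate 2, by 1.28-fold to 1.44-fold after scaling of the libraries by the trimmed mean of M-values, and none passed the test. The test was exact and binomial, two-sided, on each gene's counts in both libraries, and a call needed a Benjamini-Hochberg adjusted p under 0.05 together with a ratio of 2-fold or more. Over the 360 genes that reached 10 counts in either library, 10.3% were called, 3.89% as higher in replicate 1 and 6.39% as higher in replicate 2. Of the members 4 were tested and 0 called, and Mir367, at 0, was not tested. With replicate 1 set over replicate 2, Mir302d had a log2 ratio of -0.40 (95% interval -0.70 to -0.10, exact binomial test, adjusted p = 0.0145). Mir302a had one of -0.35 (-0.66 to -0.05, exact binomial test, adjusted p = 0.0377). For both the p was below the threshold and the ratio short of 2-fold. Mir302b, at -0.38 (-0.79 to 0.01, exact binomial test, adjusted p = 0.0892), and Mir302c, at -0.52 (-1.47 to 0.35, exact binomial test, adjusted p = 0.345), had intervals that included 0.

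The median log2 ratio of the 4 tested members was -0.39, against -0.02 over all 360 genes tested. Summed over the cluster the ratio was -0.38 (-0.57 to -0.20), or 1.31-fold higher in replicate 2 (1.15-fold to 1.48-fold). Scaling by total counts moved all ratios by -0.21, the median of all genes to -0.23 and the cluster's sum to -0.60. The test counts reads of these libraries and says nothing of the spread between litters. With an assumed coefficient of variation of 0.2 between libraries in edgeR's exact test, the adjusted p was 1 for each of the 4 genes.

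**Figure D3:**
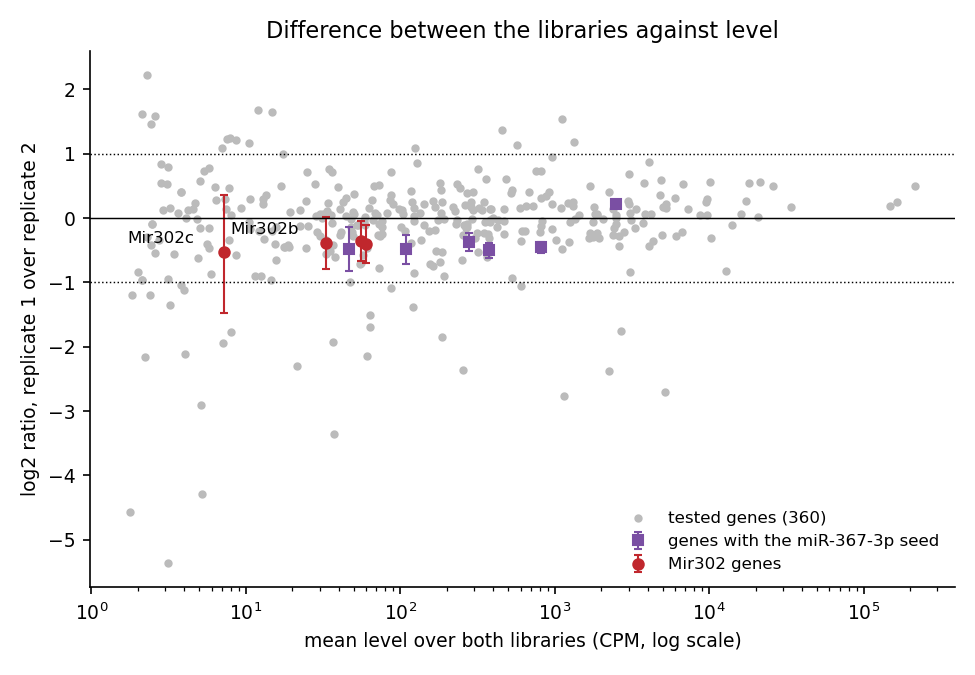
Log2 ratio of replicate 1 over replicate 2 (vertical axis) against the mean level in CPM on a log scale (horizontal axis) for the 360 tested genes. Error bars are exact 95% intervals for counting error and dotted lines mark 2-fold; the 4 Mir302 genes lay between -0.35 and -0.52, inside the 2-fold lines, as did the 6 other genes with the miR-367-3p seed.

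Other genes of the pluripotency network of miRNAs were close to the limit of counting. The miR-290 to miR-295 cluster on chromosome 7, whose products share the miR-302 seed or lie near it, is the major miRNA cluster of mouse embryonic stem cells. Its 7 measured genes together had only 14 and 38 counts in replicates 1 and 2 (4.41 and 10.3 CPM), and 0 of 7 reached 10 counts in both libraries. The miR-302/miR-367 cluster had 28.1 times their counts in replicate 1 (exact 95% interval 16.6 to 52.0) and 18.2 times in replicate 2 (13.1 to 25.9). Mir290b and Mir292b of that cluster were not analysed. How many of its reads were lost because they matched several positions was not examined, so these folds may be overstated. Mir294 had 6 and 10 counts, Mir292 5 and 8, and Mir291a 1 and 3. Of the 2 genes tested, Mir293, with 2 and 14 counts, was called, against 10.3% of all genes tested. Its log2 ratio was -2.16 (-5.56 to -0.26, exact binomial test, adjusted p = 0.0362). Mir293 reached 10 counts only in replicate 2, where it was higher, so its call is not independent of the filter. Mir290a was at 0 in both libraries. The 3 genes of this cluster with the exact seed AAGUGCU, Mir294, Mir291a and Mir295, summed to 2.21 and 4.09 CPM, below Mir302b or Mir302d alone in both libraries.

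For the seed of Mir367 the reverse held. The 6 other genes that carry AUUGCAC were all detected and summed to 3747 and 4478 CPM in replicates 1 and 2, while Mir367 itself was at 0. Mir92b, a miRNA gene of neural progenitors, led them with 7928 and 9170 counts (2498 ± 1.31 CPM, SD, n = 2) and made up 66.7% and 55.8% of the seed's counts. Mir92-1, which yields miR-92a from the miR-17 to miR-92 transcript, had 810 ± 261 CPM, Mir25 373 ± 128 CPM and Mir363 276 ± 77.7 CPM. None of the 6 was called, against 10.3% of all genes tested. Each had an adjusted p under the threshold but a ratio short of 2-fold. Their median log2 ratio was -0.47, with 5 below 0 and Mir92b at 0.21. miR-92a has a copy of its gene on the X chromosome, Mir92-2, so reads common to both were lost and its level is understated. The sum for the seed is then understated too, and the lead and share of Mir92b may be overstated.

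The genes with the neighbouring seed AAAGUGC, those of miR-17 and its relatives in proliferating cells, were far more abundant. Of 7 genes 6 were detected, and they summed to 19426 and 28392 CPM. Mir17 had 10296 ± 2605 CPM, Mir93 4920 ± 1142 CPM, Mir106b 4296 ± 1173 CPM and Mir20a 4060 ± 1275 CPM. The median log2 ratio of the 6 tested genes was -0.40, each lay below 0, and 0 were called, against 10.3% of all genes tested. All 6 passed the threshold on adjusted p and fell short of 2-fold. The values of all these genes come from the same pair of libraries, so their ratios are not independent of those of the miR-302 genes.

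**Figure D4:**
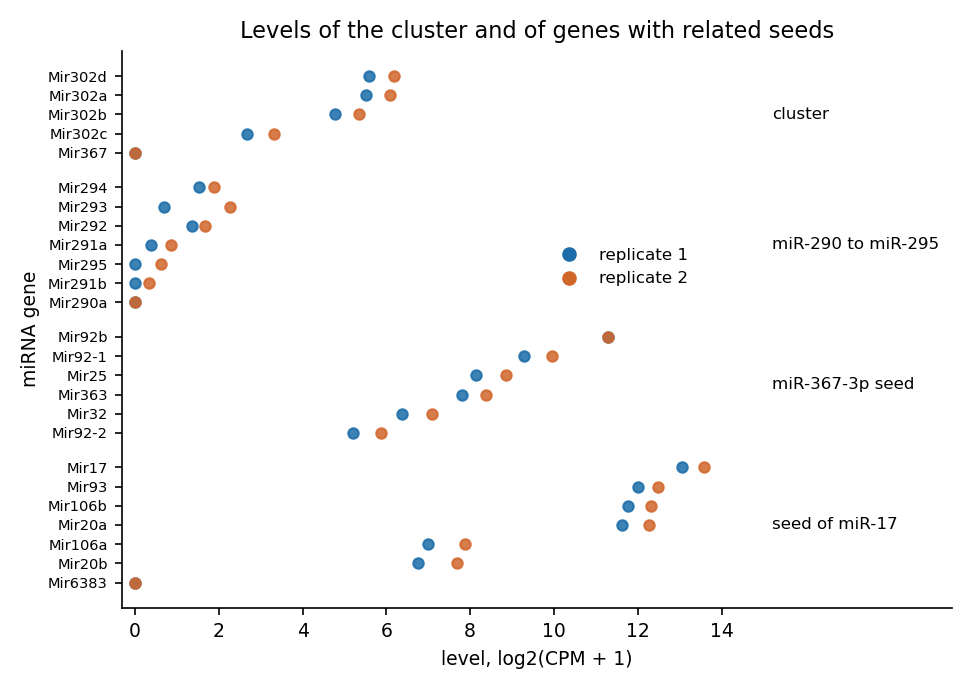
Level as log2(CPM + 1) (horizontal axis) of each gene (vertical axis) in replicate 1 and replicate 2, for the miR-302/miR-367 cluster, the miR-290 to miR-295 cluster and the genes with the seeds of miR-367-3p and miR-17. The Mir302 genes, at 7.17 to 59.7 CPM on average, lay above the miR-290 to miR-295 genes and below most genes of the other seeds, and Mir367 was at 0.

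The genes most like Mir302d over these 2 libraries were sought by the Euclidean distance of log2(CPM + 1) among 328 other detected genes. The closest were Mir190a (distance 0.0587, 149 and 276 counts), Mir302a (0.130), Mir362 (0.170), Mir150 (0.203) and Mir155 (0.213). Mir302a was thus the second closest gene to its neighbour, whereas Mir302b lay at 1.17 and Mir302c at 4.10, because the distance follows level. For Mir367 the same measure gave the detected genes nearest to 0 and nothing more, namely Mir200b (2.87), Mir3076 (2.93), Mir6897 (3.13), and Mir1982 and Mir3060 (3.21 each).

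Marker lists were set beside these values, and their calls can be read against the 10.3% called over all 360 genes tested. Neural genes, led by Mir137, summed to 14776 and 13799 CPM with 9 of 12 detected, and 2 of the 10 tested, Mir128-1 (log2 ratio 1.18) and Mir128-2 (1.13), were called higher in replicate 1. Progenitor genes, led by Mir135b, summed to 7871 and 7387 CPM with 4 of 4 detected, and oligodendrocyte genes, led by Mir219a-2, to 2674 and 2541 CPM with 3 of 3, and 0 were called in either list. Some lists of other cell types held genes called higher in replicate 2, the library in which the miR-302 genes had more counts per 1000000. Sensory genes, led by Mir182, stood at 2109 and 15050 CPM with 3 of 3 detected, and 3 were called higher in replicate 2. Mesenchymal genes, led by Mir143, stood at 3502 and 7561 CPM with 5 of 8 detected and Mir145b at 0, and 5 of the 6 tested were called higher in replicate 2. Among the called genes Mir199a-2, with 1 and 37 counts, reached 10 counts only in replicate 2, so its call is not independent of the filter. The endothelial gene Mir126a had 8443 and 17271 CPM. After scaling it was 1.77-fold higher in replicate 2, and it was not called because that ratio fell short of 2-fold, though its adjusted p passed the threshold. Leukocyte genes, led by Mir223, had 152 and 280 CPM with 4 of 5 detected and Mir142b at 0, and 1 of the 4 tested, Mir223, was called higher in replicate 2. Epithelial genes, led by Mir203, summed to 407 and 508 CPM with 5 of 7 detected. After scaling that sum was 1.08-fold higher in replicate 2, while the median log2 ratio was 0.22 and the 1 gene called of 5 tested, Mir200c (1.24), was higher in replicate 1. Red cell genes, led by Mir451a, summed to 94.3 and 113 CPM with 3 of 3 detected, 1.04-fold higher in replicate 2 after scaling, and the 1 gene called, Mir486 (log2 ratio 1.68), was higher in replicate 1. Muscle genes, led by Mir206, summed to 45.4 and 53.1 CPM with 1 of 5 detected and Mir133a-1 and Mir133a-2 at 0, and 0 were called. Reads that matched several positions were counted for no gene, so genes with copies, such as Mir133a-1 and Mir133a-2, can be understated. A 0 or a low sum in these lists thus need not mean a low level. The part of such cells in the ratios of the miR-302 genes was not tested.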

How the data were processed

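Each library has 1 table without a header, in which the authors deposited unnormalized counts of reads per miRNA gene. The reads had been aligned to mm10 and counted on annotation M4, as the notes deposited beside the tables state. The aligner, trimming and filters are unstated in the sources used here. Of the 3 count columns (either strand, sense strand, other strand), the sense counts were used. The 4 rows that name no gene (unmapped reads 11.5% and 11.8%, reads at several positions 32.4% and 33.3%, reads on no gene 2.75% and 3.01%, ambiguous reads 0%, of all reads in replicates 1 and 2) stayed out of library sizes and tests.

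Symbols and positions came from GENCODE M21 (GRCm38), which matched 1894 of 1973 identifiers, and sequences from RefSeq (GRCm38.p6), which held mature products for 916 of the measured genes by symbol and for all 5 members. Libraries were scaled by TMM in edgeR 4.0.16 (R 4.3.3), and log2 ratios used a prior count of 0.5. Counts were compared by exact binomial tests (scipy 1.17.1) with Benjamini-Hochberg adjustment over all 360 tested genes, since 1 library per dam leaves no residual degrees of freedom for edgeR's quasi-likelihood test. Limits for a count of 0 are 3 counts. Folding used ViennaRNA 2.7.2. DESeq2 1.42.0 gave alternative size factors. The procedure was tested on counts simulated with counting error only and with planted changes of more than 2-fold. That test says nothing of spread between libraries or of ratios as small as those of the members.

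The members and lists were chosen with earlier results of these data known. Genes named were all members, up to 4 of the highest genes of each seed group and of the miR-290 to miR-295 cluster, the highest gene of each marker list, and the 5 genes nearest in level to Mir302d and to Mir367; any other gene was named after its values were seen. Molecular identifiers are not mentioned, so a read is not taken as an independent molecule. Mir9-1, Mir126b, Mir142, Mir290b, Mir292b, Mir451b, Mir486b and Mir1a-2 were not analysed here.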

Additional observations from a re-analysis of the deposited data

How the results depend on the processing

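The sign of the log2 ratio and the absence of a call held for all 4 tested miR-302 genes under every alternative run, with ratios of -0.61 to -0.38 for Mir302d, -0.56 to -0.34 for Mir302a, -0.59 to -0.37 for Mir302b and -0.73 to -0.51 for Mir302c. Their adjusted p ran from 6.51e-05 to 1, 0.000429 to 1, 0.00465 to 1 and 0.133 to 1; for Mir302a it was 0.0710 with no filter on low counts. Mir302c fell below 100 counts over both libraries and was left out of the run that required them. In the runs that changed only the count filter or the assumed variation, the ratios were those of the main run, all short of 2-fold. Neither the sign nor the absence of a call could change in those runs. Without 1 replicate, levels ran from 47.3 to 72.2 CPM (Mir302d), 45.1 to 66.7 (Mir302a), 26.5 to 40.0 (Mir302b) and 5.36 to 8.99 (Mir302c), 124 to 188 CPM for the sum, and the order held. Per 1000000 of all reads, a larger denominator by construction, they were 31.4, 29.4, 17.5 and 3.76, and 81.9 for the sum. Counting either strand left levels within 1 SD.

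Scaling by total counts moved the cluster's summed log2 ratio to -0.60, the members' median to -0.60, and the medians of the lists to 0.041 (neural), 0.00124 (progenitor), -0.063 (oligodendrocyte), -2.28 (mesenchymal), -2.92 (sensory), 0.014 (epithelial), -0.56 (leukocyte), -0.68 (seed AUUGCAC) and -0.61 (seed AAAGUGC). The calls over all genes numbered 37, or 14 higher in replicate 1 and 23 in replicate 2, and 43 with total counts (8 and 35). They numbered 20 at 100 counts over both libraries, where 282 genes were tested, and 21 with an assumed coefficient of variation of 0.2, where the spread allowed is wider by construction. No paired analysis was possible because the design holds 1 group. At this depth a miRNA below about 1 CPM is not distinguished from absence.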
